A study of Rattus norvegicus with 12 samples.

Results

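Genes of 10 plasma proteins that the liver makes were followed in the tibia of young female rats, where 14 of the 31042 probe sets tested on the array measured them, among probe sets with a single symbol for 14217 genes. The genes were Alb, Afp, Ttr, Apoa1, Apoa2, Fga, Fgb, Ahsg, Serpina1 and Itih3, and a probe set was taken only where its annotation gave a single symbol from these 10. Alb had 2 probe sets, Fga had 2, Fgb had 3 and each of the other 7 genes had 1. Alb was chosen by its measured rise in SPI+E2 against CAS, and Itih3 was chosen by its measured rise in SPI against CAS, so both are described without a p-value in every comparison that uses the arrays of their own choosing contrast, CAS included. The other 8 genes were added as textbook plasma protein genes while results of these data were known. The values asked whether Alb rose together with other liver genes.

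Pre-pubertal female Sprague-Dawley rats, all from dams fed casein, were given their diets from postnatal day 21 and killed on postnatal day 34. The SPI group ate soy protein isolate, the E2 group ate casein and received 17β-estradiol from a pump under the skin, the SPI+E2 group ate soy protein isolate and received 17β-estradiol, and the CAS group ate casein alone. No pump without hormone is described for the SPI and CAS groups in the sources used here. RNA came from the right tibia after its marrow had been aspirated. Each of the 12 arrays held a pool of 2 to 3 rats, with 3 pools in a group, so that the spread of single animals was not measured. In such whole-bone RNA, more cells of a type and more RNA per cell cannot be told apart.

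Hepatocytes secrete most of the protein of blood plasma, and the liver's own transcription factors, HNF4 among them, drive these genes together. Albumin carries fatty acids, hormones and drugs and holds water in the circulation, while α-fetoprotein, the product of Afp, is its fetal counterpart. Transthyretin, the apolipoproteins and the fibrinogen chains travel in the same plasma, and bone matrix takes up albumin and fetuin-A, the product of Ahsg, from the blood as protein. A transcript of such a gene in bone is a different measurement from the protein held there.

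Alb and Afp lie side by side on chromosome 14, and their promoters are shown with that of Itih3 because these 3 genes give the contrast described here: Alb was high in SPI+E2, its neighbour Afp had no such value, and Itih3 was high in SPI. The sequences are the 250 bases before the start site in RefSeq (GRCr8), and capitals mark the CCAAT box, read as CCAAT or as its reverse complement ATTGG. For Alb and Itih3 the start site used lies inside the gene's listed span, which ends at 17907043 and at 6123609. Part of the Alb window and nearly all of the Itih3 window thus lie within the gene.
Alb, chr14:17906980-17907229, strand -: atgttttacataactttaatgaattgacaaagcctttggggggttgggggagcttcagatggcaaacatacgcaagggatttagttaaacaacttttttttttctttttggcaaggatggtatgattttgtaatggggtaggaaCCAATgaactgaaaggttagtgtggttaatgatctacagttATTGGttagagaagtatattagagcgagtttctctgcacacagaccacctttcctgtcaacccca
Afp, chr14:17875646-17875895, strand -: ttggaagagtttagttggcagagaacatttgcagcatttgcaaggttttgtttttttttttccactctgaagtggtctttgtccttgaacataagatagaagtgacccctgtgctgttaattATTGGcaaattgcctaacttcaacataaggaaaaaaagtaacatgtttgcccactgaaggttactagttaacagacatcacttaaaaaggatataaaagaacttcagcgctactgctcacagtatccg
Itih3, chr16:6123375-6123624, strand -: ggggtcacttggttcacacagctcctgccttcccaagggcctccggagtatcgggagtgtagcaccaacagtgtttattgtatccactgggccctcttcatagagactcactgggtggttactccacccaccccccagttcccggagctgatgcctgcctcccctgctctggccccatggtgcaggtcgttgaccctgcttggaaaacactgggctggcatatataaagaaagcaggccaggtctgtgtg
The box began at -106 and, in reverse, at -65 in Alb, and in reverse at -128 in Afp, counted from the start site, and the Itih3 window held none. Promoters of 8 of the 10 genes were found in the table (not those of Apoa1 and Apoa2), and each was searched on both strands over 300 bases, from 250 before to 50 after the start. CCAAT was found in 4 of the 8 genes, namely Alb, Afp, Ttr and Fgb, and in 37.5% of the 33469 promoters of that length. The TATA box TATAAA was found in Afp and Itih3 and in 14.2% of all promoters. AGGTCA, the core letters of estrogen receptor and HNF4 sites, was found in 0 of the 8 genes and in 16.2% of all promoters. Such matches describe letters only.

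The deposited values are on a log scale, taken here as log2, on which 0 is a probe set's own median across the 12 arrays, so no value gives how much transcript was present. Array medians lay between -0.00416 and 0.00721, and SPI pool 1 had the widest spread over probe sets (SD 0.211, against 0.128 to 0.164 on the other arrays). Within groups, arrays correlated at r of 0.279 to 0.542. Over all probe sets the median change against CAS was 0.019 in SPI+E2, 0.006 in SPI and -0.007 in E2. The labelled tissue could not be checked by level on such values. The 9 osteoblast probe sets averaged -0.02 to -0.01 on SPI arrays, 0.02 to 0.03 on E2 arrays, -0.06 to -0.03 on SPI+E2 arrays and 0.01 to 0.03 on CAS arrays. Eif2s3y, a gene of the Y chromosome, had values of 0.26, 0.33 and 0.86 in SPI, 0.01, 0.02 and 0.19 in E2, -0.37, -0.28 and -0.01 in SPI+E2, and -2.20, -1.89 and -1.82 in CAS, although all rats were labelled female. Its changes against CAS were 2.45, 2.04 and 1.75 (limma, adjusted p = 1.03e-06, 6.25e-06 and 7.77e-05). The 4 Xist probe sets had changes of -0.41 to -0.21 in SPI, -0.35 to -0.23 in E2, and -0.30 to -0.17 in SPI+E2, and 3 or more of them passed the test in each group. With another Y-linked gene, the list of Y-linked genes and Xist held 7 probe sets of 3 genes. Eif2s3y alone was called higher in each group, while 5, 4 and 3 were lower in SPI, E2 and SPI+E2. The 5 in SPI included a probe set of the other Y-linked gene, so the Y-linked genes did not move together. Any part of this in the results below was not tested.

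Alb stood far above its other values on the SPI+E2 arrays, by its 2 probe sets alike in direction and unlike in size. With 1367555_at, the SPI+E2 pools had 2.49, 2.52 and 2.59, the SPI pools had 0.19, 0.12 and 0.08, the E2 pools had -0.24, -0.20 and -0.09, and the CAS pools had -0.27, -0.08 and -0.45. The lowest SPI+E2 pool lay far above the highest pool of any other group. The SPI+E2 mean of 2.53 ± 0.0493 exceeded the CAS mean of -0.27 ± 0.185 (SD, n = 3 each) by 2.80, which is 6.96-fold if the scale is log2. The base of the deposited logarithms is not stated, and the same difference in natural logarithms would be 16.4-fold. With 1367556_s_at, the pools had 1.12, 1.22 and 1.07 in SPI+E2, 0.41, -0.03 and 0.03 in SPI, -0.03, -0.22 and 0.09 in E2, and -0.16, -0.05 and -0.33 in CAS. Again no other pool came near the SPI+E2 pools. The SPI+E2 mean of 1.13 ± 0.0752 exceeded the CAS mean of -0.18 ± 0.138 by 1.31, or 2.48-fold if log2. The log2 differences of the Alb probe sets were thus 1.49 apart. With quantile normalisation of the deposited values these differences were smaller, at 1.83 with 1367555_at and 1.14 with 1367556_s_at. Among 31042 probe sets ordered by their change in SPI+E2 against CAS, the Alb probe sets stood at places 2 and 15, which describes how they were chosen.

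The mean of Alb in SPI was also above that in CAS, a comparison that shares the CAS arrays with the one that chose Alb and is given as a description. The difference was 0.40 with 1367555_at (SE 0.0823), or 1.32-fold if log2, and all 3 SPI pools lay above all 3 CAS pools. It was 0.31 to 0.49 without each array in turn. With 1367556_s_at the difference was 0.32 (SE 0.117), and here too the groups did not overlap. E2 alone had Alb differences of 0.09 and 0.13 against CAS, and its pools overlapped the CAS pools with both probe sets. All 3 treatments were compared with the same 3 CAS arrays, so these changes share that group's error.

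**Figure D1:**
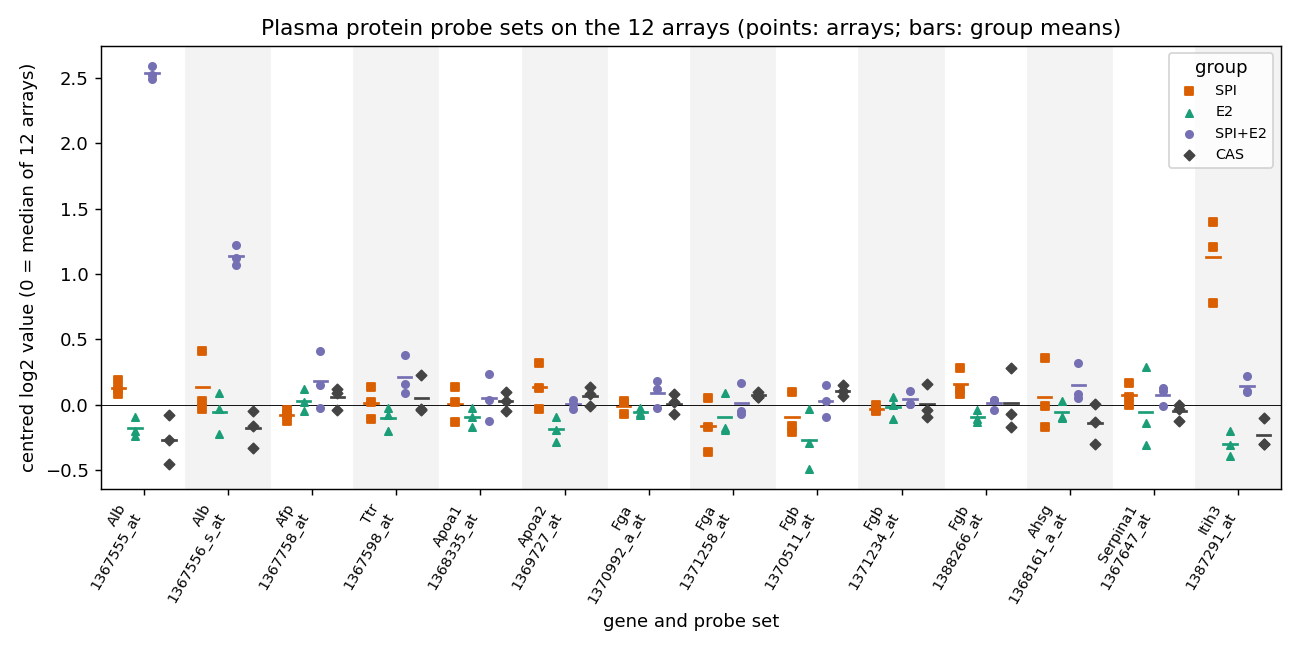
Centred log2 value (y axis) of each of the 14 probe sets (x axis) on every array, with SPI, E2, SPI+E2 and CAS from left to right, points for arrays and bars for group means. The Alb probe sets stand at 2.49 to 2.59 and at 1.07 to 1.22 in SPI+E2, Itih3 at 0.78 to 1.40 in SPI, and the other 11 probe sets lie between -0.49 and 0.41 on every array.

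The other carriers and fetal proteins did not follow Alb past the test. Afp, whose gene neighbours Alb, had 0.41, -0.02 and 0.15 in SPI+E2, -0.12, -0.04 and -0.07 in SPI, 0.12, -0.05 and 0.02 in E2, and -0.04, 0.12 and 0.09 in CAS. SPI+E2 and CAS overlapped, and their difference was 0.12 (SE 0.0938, 95% interval -0.08 to 0.33, adjusted p = 0.464). Ttr, which codes for the carrier of thyroxine and of retinol-binding protein, had 0.38, 0.16 and 0.09 in SPI+E2 and -0.03, 0.23 and -0.04 in CAS. These also overlapped, with a difference of 0.16 (SE 0.0982, 95% interval -0.06 to 0.37, adjusted p = 0.371). Ahsg, which codes for fetuin-A, an inhibitor of calcification, came closest: its pools had 0.05, 0.32 and 0.08 in SPI+E2, 0.36, -0.01 and -0.17 in SPI, -0.09, -0.10 and 0.03 in E2, and -0.30, -0.13 and 0.01 in CAS. The SPI+E2 pools lay just above the CAS pools, and the difference of 0.29 did not pass (SE 0.126, 95% interval 0.01 to 0.56, adjusted p = 0.192).

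The apolipoproteins of high-density lipoprotein and the antiprotease did not pass in SPI+E2 against CAS. Apoa1, the main protein of that particle, had -0.12, 0.04 and 0.24 in SPI+E2 and 0.10, 0.03 and -0.05 in CAS, a difference of 0.03 (adjusted p = 0.9) that turned to -0.07 without SPI+E2 pool 3. Apoa2, the second protein of the particle, had 0.01, 0.04 and -0.03 in SPI+E2, 0.32, 0.13 and -0.03 in SPI, -0.19, -0.09 and -0.28 in E2, and 0.08, 0.14 and -0.01 in CAS. Its SPI+E2 pools overlapped the CAS pools (difference -0.07, adjusted p = 0.677), while its 3 E2 pools lay below every other pool. Serpina1, which codes for the inhibitor of neutrophil elastase α1-antitrypsin, had -0.01, 0.11 and 0.13 in SPI+E2 and -0.03, 0.00 and -0.12 in CAS. The difference was 0.13 (95% interval -0.13 to 0.39, adjusted p = 0.568).

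Fibrinogen is built of α, β and γ chains that hepatocytes make in step, and Fga and Fgb code for the first pair. Their 5 probe sets differed between SPI+E2 and CAS by 0.08 and -0.06 for Fga and by -0.08, 0.03 and 0.00 for Fgb, with adjusted p of 0.471 or more. Fgb 1370511_at had -0.49, -0.03 and -0.29 in E2, against 0.11, 0.07 and 0.15 in CAS, and its E2 pools all lay below the CAS pools. The difference of -0.38 came near the threshold (SE 0.113, 95% interval -0.63 to -0.13, adjusted p = 0.059). The other Fgb probe sets had E2 pools of -0.11, 0.06 and 0.00, and of -0.04, -0.13 and -0.11, and both overlapped their CAS pools. Fga 1371258_at had 0.05, -0.17 and -0.36 in SPI, below the CAS pools of 0.10, 0.06 and 0.06, and Fga 1370992_a_at had 0.02, -0.07 and 0.03 in SPI, within its CAS range. The probe sets of 1 fibrinogen gene thus differed in which pools overlapped.

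Over the 14 probe sets, 2 were called higher in SPI+E2 against CAS and both were of Alb, which this contrast had chosen, while 4.14% of all probe sets were called higher and 4.33% lower. In SPI against CAS, 2 were called higher, Alb 1367555_at and Itih3, beside 8.25% higher and 9.07% lower over all probe sets. Itih3 was chosen by this contrast and Alb with the same CAS arrays, so nothing is read from that count. In E2 against CAS, limma called 0, the same model without moderated variances called 0, and 2 had an unadjusted p under 0.05 (Apoa2 and Fgb 1370511_at), beside 4.99% higher and 4.36% lower. Without Alb and Itih3, limma and the model without moderated variances each called 0 of the remaining 11 probe sets in each of the 3 contrasts, and 0, 2 and 1 had an unadjusted p under 0.05 for SPI, E2 and SPI+E2 (Ahsg in the last). The median change of these 11 was 0.03 in SPI+E2, -0.02 in SPI and -0.11 in E2, and their SPI+E2 changes ran from -0.08 to 0.29. Across the 12 arrays Alb 1367555_at correlated with its second probe set at r of 0.97, with Ttr at 0.63, with Fga 1370992_a_at at 0.59, with Ahsg at 0.51, with Afp at 0.50 and with the rest at 0.06 to 0.30. These values include the 3 SPI+E2 arrays on which Alb stood apart, and they are given as a description with no test.

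Further plasma protein genes, taken as 5 lists that leave out the 10, had 5 of 60 probe sets called in SPI+E2 against CAS (8.33%), beside 8.48% of all probe sets in either direction. Of 16 probe sets of plasma carriers, 2 rose and 1 fell (median 0.09). Gc, the vitamin D carrier, had 0.40, 0.30 and 0.46 in SPI+E2 and -0.32, -0.03 and -0.12 in CAS with 1368288_at, a rise of 0.54 (SE 0.0998, adjusted p = 0.00629). Its second probe set, 1368289_at, had 0.06, 0.02 and 0.13 in SPI+E2 and -0.24, 0.03 and -0.02 in CAS, which overlapped. Cp, the copper carrier ceruloplasmin, rose with 1 of its 3 probe sets by 0.36 (SE 0.0673, adjusted p = 0.00731), while the other two had 0.10 and 0.07 (adjusted p = 0.199 and 0.591). Rbp4, the retinol carrier, fell in SPI+E2 (change -0.32, adjusted p = 0.00965) and in E2 (change -0.32, adjusted p = 0.00704). Of 11 clotting probe sets, limma called 0 in each of the 3 contrasts with CAS (median 0.09 in SPI+E2), with 0, 1 and 1 at an unadjusted p under 0.05 for SPI, E2 and SPI+E2. Of 10 apolipoprotein probe sets (median 0.08) and 14 complement probe sets (median 0.12), limma called 0 in SPI+E2, with 1 and 2 at an unadjusted p under 0.05, all of them higher. The model without moderated variances also called 0 in each of these. Of 9 protease inhibitor probe sets 2 fell in SPI+E2, namely Serpinf1 (change -0.34, adjusted p = 9e-04) and A2m (change -0.23, adjusted p = 0.0328).

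The same 5 lists had 5 of 60 probe sets called in SPI (8.33%, beside 17.3% of all probe sets) and 4 of 60 in E2 (6.67%, beside 9.35%). Apoe, which macrophages and glia also make, rose with 1370862_at by 0.65 in SPI (SE 0.0498, adjusted p = 4.7e-06) and by 0.65 in E2 (adjusted p = 7.14e-06), the single apolipoprotein probe set called. Its other probe set had -0.04 in SPI (adjusted p = 0.83) and -0.10 in E2 (adjusted p = 0.683). Cfi, the complement regulator factor I, rose by 0.57 in E2 (SE 0.0767, adjusted p = 0.000469), where 1 of 3 probe sets of Masp2, a protease of the lectin pathway, fell by 0.25 (adjusted p = 0.0252) and the other two had 0.18 and 0.09 (adjusted p = 0.481 and 0.58). C6, a protein of the membrane attack complex, rose by 0.19 in SPI (adjusted p = 0.0463). Serpinf1, which codes for pigment epithelium-derived factor, had a change of -0.39 in SPI (SE 0.0455, adjusted p = 0.000134).

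**Figure D2:**
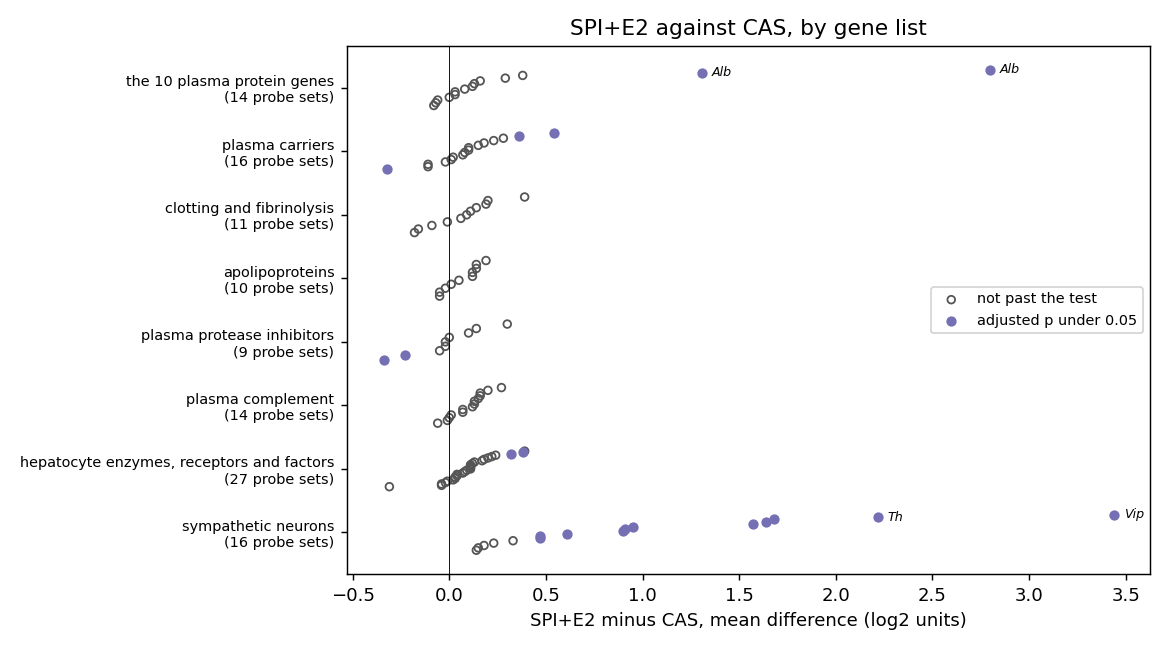
Change in SPI+E2 against CAS (x axis, difference of means of 3 pools each in log2 units) of every probe set of 8 gene lists (y axis), with filled points for adjusted p under 0.05. Alb was chosen by this contrast, and Vip, Th, Npy and Dbh were named with earlier results of these data known. The hepatocyte and plasma protein lists without the 10 genes lie between -0.34 and 0.54, while Alb reaches 1.31 and 2.80 and the sympathetic neuron list reaches 3.44 with Vip.

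Genes that mark the hepatocyte itself had small changes against CAS, in the mean upward, while Alb stood high. The list of hepatocyte enzymes, receptors and factors had 27 probe sets of 24 genes, of which 2 rose and 25 did not pass in SPI+E2 against CAS (median 0.11, range -0.31 to 0.39). Over all probe sets, 4.14% were called higher and 4.33% lower, and the median change was 0.019. Nothing about hepatocyte genes is read from the count of 2. At an unadjusted p under 0.05 in limma, 5 were higher and 1 lower. Its mean per array was 0.04 to 0.07 in SPI+E2, 0.01 to 0.14 in SPI, -0.05 to -0.03 in E2 and -0.06 to -0.03 in CAS. The SPI+E2 arrays thus lay above the CAS arrays, and SPI arrays reached as high as SPI+E2 arrays. The rises were of the urea cycle genes Arg1 (0.38, adjusted p = 0.0278) and Ass1 (0.32, adjusted p = 0.00633), which cells outside the liver also use, and both rose in SPI as well (0.37 and 0.21, adjusted p = 0.019 and 0.0257). The defining genes did not pass. Hnf4a, the hepatocyte transcription factor, had changes of 0.17, 0.08 and -0.02 with its 3 probe sets (adjusted p = 0.357, 0.722 and 0.889). Tat, tyrosine aminotransferase, had 0.22 (adjusted p = 0.252), and Cps1, which starts the urea cycle, had 0.13 and 0.18 (adjusted p = 0.555 and 0.203). Asgr1, a subunit of the asialoglycoprotein receptor, had 0.12 (adjusted p = 0.279) and Slc10a1, the bile acid importer, had 0.11 (adjusted p = 0.519). Since centred values give no level, whether these transcripts were present at all cannot be read from them.

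The chromosomal neighbours of Alb that were measured did not pass. Beside it on chromosome 14 lie Afp and Afm, which codes for the related carrier afamin, and Afm had a change of 0.34 in SPI+E2 against CAS (adjusted p = 0.189) and of 0.33 in SPI (adjusted p = 0.162). On its other side, none of the 4 Ankrd17 probe sets passed. Fgg, the third fibrinogen gene, lies with Fga and Fgb on chromosome 2 and had a change of -0.01 in SPI+E2 (adjusted p = 0.962). Apoc3 and Apoa4, which lie beside Apoa1 on chromosome 8, had -0.05 and 0.14 (adjusted p = 0.855 and 0.362).

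Of the 5 probe sets whose pattern over the 12 arrays was most like Alb 1367555_at, 4 were of genes that sympathetic neurons use. These were Vip, a neuropeptide (r = 0.994), Slc18a2, the vesicular monoamine transporter (r = 0.985 and 0.976 with a pair of probe sets), and Dbh, which makes noradrenaline (r = 0.976). The other was Lcn2 (r = 0.979), which codes for the siderophore binder lipocalin 2, a product of neutrophils, epithelia and the injured liver. For Alb 1367556_s_at the 5 were Cited2 (r = 0.966), C5ar1 (r = 0.965), Tcf7l2 (r = 0.959), Vip (r = 0.958) and Dbh (r = 0.956). These orders were taken over the same arrays and carry no test. Vip had 3.37, 2.96 and 3.47 in SPI+E2, 0.35, 0.20 and 0.01 in SPI, -0.39, -0.32 and -0.38 in E2, and -0.20, -0.01 and -0.30 in CAS. Its SPI+E2 pools, like those of Alb, lay far above all others, and its mean was 3.44 above that of CAS. Th, the first enzyme of catecholamine synthesis, was higher by 2.22, Npy, a neuropeptide of sympathetic nerves, by 1.68 and Dbh by 1.64. Vip, Th, Npy and Dbh were named beside Alb with earlier results of these data known. Their differences are therefore given as descriptions without a p-value.

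Of the whole list of sympathetic neuron genes, 11 of 16 probe sets rose and 0 fell in SPI+E2 against CAS (median 0.75). In SPI 3 were up and 1 down, and in E2 1 was up and 2 down. Over all probe sets, 4.14% were called higher and 4.33% lower in SPI+E2, 8.25% and 9.07% in SPI, and 4.99% and 4.36% in E2. The list holds Vip, Th, Npy and Dbh, which were named with Alb, and Slc18a2, found above by likeness to Alb. Its counts are therefore a description. The list mean was 0.84 to 0.92 on SPI+E2 arrays, -0.05 to 0.11 on SPI arrays, -0.22 to -0.07 on E2 arrays and -0.16 to -0.06 on CAS arrays. General neuron genes had another order, with list means of 0.42 to 0.45 in SPI, 0.21 to 0.24 in E2, -0.26 to -0.21 in SPI+E2 and -0.48 to -0.44 in CAS. What part cells of such nerves had in the Alb value was not tested.

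**Figure D3:**
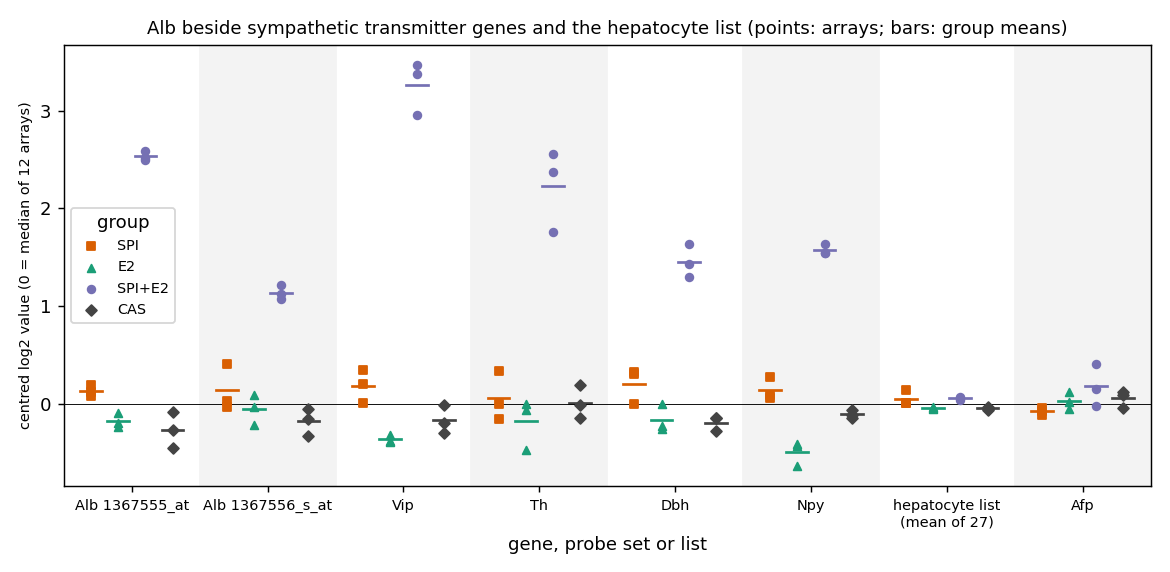
Centred log2 value (y axis) of both Alb probe sets, the sympathetic transmitter genes Vip, Th, Dbh and Npy, the mean of the 27 hepatocyte probe sets, and Afp (x axis), with SPI, E2, SPI+E2 and CAS from left to right, points for arrays and bars for group means. Alb and the transmitter genes stand apart on the 3 SPI+E2 arrays, while the hepatocyte mean lies between -0.06 and 0.14 on all 12 arrays.

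Set against each single treatment, the combination held the Alb difference. Alb 1367555_at was 2.40 higher in SPI+E2 than in SPI and 2.71 higher than in E2, and 1367556_s_at was 1.0 and 1.19 higher, as descriptions. In SPI+E2 against SPI, 3 of the 14 probe sets were called (both Alb higher, Itih3 lower), beside 11.4% of all probe sets in either direction. In SPI+E2 against E2, 3 were called higher (both Alb and Itih3), beside 10.5%. The departure of SPI+E2 from the sum of the SPI and E2 changes was 2.31 and 0.87 for the Alb probe sets and -0.92 for Itih3, the 3 called of 14 beside 9.92%, all of them members chosen by arrays that enter here. Of the 11 remaining probe sets, limma and the model without moderated variances called 0 in each of these 3 contrasts, with 1, 4 and 3 at an unadjusted p under 0.05. The largest departure among them was 0.50 for Fgb 1370511_at (adjusted p = 0.0758), and Ttr had 0.31 in SPI+E2 against E2 (adjusted p = 0.0678). Ttr passed in that contrast with the pool number as a replicate block (adjusted p = 0.0375) and for means per gene (adjusted p = 0.0488). Without E2 pool 2, Fgb 1370511_at and Serpina1 passed there (0.42 and 0.30, adjusted p = 0.0354 and 0.0429). The departure of Fgb 1370511_at passed with array weights (0.59, adjusted p = 0.0278), without SPI pool 1 (0.6, 0.0312) and without E2 pool 2 (0.62, 0.0195). Afp passed in SPI+E2 against SPI without SPI+E2 pool 2 (0.36, adjusted p = 0.0263). The 11 remaining probe sets, which cover 8 genes, had differences of 0.06 to 0.31 in SPI+E2 against E2, where the median over all probe sets was 0.026. The share of all probe sets with a higher mean there was not counted, so nothing is read from their common direction. Against CAS the median of these 11 was -0.11 in E2 and 0.03 in SPI+E2, beside -0.007 and 0.019 over all probe sets.

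In SPI against E2, 3 of the 14 probe sets were called higher, Alb 1367555_at, Apoa2 and Itih3, beside 16.7% of all probe sets in either direction. This contrast shares no array with the choice of Alb. Alb was 0.31 higher in SPI than in E2 (adjusted p = 0.0249, or 0.0243 in a fit of those groups alone). Its 3 SPI pools lay above its 3 E2 pools. The call was lost without SPI pool 1 (adjusted p = 0.077), SPI pool 2 (0.0574), E2 pool 1 (0.0905) or E2 pool 2 (0.0685). The second Alb probe set had 0.19 (adjusted p = 0.303). Apoa2 was 0.33 higher in SPI, with a mean of 0.14, than in E2, with a mean of -0.19 (SE 0.0835, adjusted p = 0.0196). That call was lost without SPI pool 1 (adjusted p = 0.0581), E2 pool 1 (0.0584) or E2 pool 3 (0.0811). Against CAS, the Apoa2 change in E2 was -0.26 (95% interval -0.44 to -0.08) and did not pass (adjusted p = 0.0802).

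Among the 10 genes, Itih3 followed a pattern that no other shared. It codes for a heavy chain of inter-α-trypsin inhibitor, which plasma delivers to the hyaluronan of tissue matrix. Its pools had 0.78, 1.21 and 1.40 in SPI, -0.31, -0.20 and -0.39 in E2, 0.10, 0.11 and 0.22 in SPI+E2, and -0.30, -0.10 and -0.30 in CAS. The SPI pools lay above every other pool, by 1.37 in the mean against CAS, and the SPI+E2 pools lay between them and the CAS pools. SPI+E2 was 0.99 below SPI, whose mean was 1.13 ± 0.319 (SD, n = 3), as a description. Against the same CAS arrays, Itih3 had a difference of -0.07 in E2 (SE 0.127), whose pools overlapped, and of 0.38 in SPI+E2, whose pools did not, again as descriptions. The means of SPI+E2 and E2 share no array with its choice, though the model estimated the spread from all 12 arrays. Itih3 was 0.45 higher in SPI+E2 than in E2 (95% interval 0.17 to 0.72, adjusted p = 0.0455). In a fit of those groups alone the adjusted p was 0.0107. Leaving out 1 array at a time from the model of all groups ended its call in 10 of 12 cases, with differences of 0.40 to 0.50.

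The genes of related chains that flank Itih3 on chromosome 16 did not share its size of change. Itih1 rose by 0.21 in SPI against CAS (SE 0.0629, adjusted p = 0.0432), and Itih4 had a change of -0.35 (SE 0.0898, adjusted p = 0.0183), the opposite direction. Over the 12 arrays the probe sets most like Itih3 were of Stmn4 (r = 0.958), Lhfpl3 (r = 0.95), Prpf38b (r = 0.949), Slc12a5 (r = 0.946) and Gad1 (r = 0.943), of which Stmn4, Slc12a5 and Gad1 are neuronal genes. Their SPI changes against CAS were 0.51, 0.43, 0.42, 1.11 and 2.02. Their E2 changes were -0.06, 0.01, -0.08, -0.27 and -0.08, and their SPI+E2 changes were 0.20, 0.18, 0.14, 0.06 and 0.22. They were picked by likeness over the same arrays, so these values are a description. Of 18 probe sets of general neuron genes, 15 rose under SPI, 15 under E2 and 10 under SPI+E2, beside 8.25%, 4.99% and 4.14% of all probe sets. The E2 and CAS pools of Itih3 overlapped. The 13 Schwann cell probe sets averaged 0.47 to 0.50 in SPI, 0.22 to 0.24 in E2, -0.30 to -0.28 in SPI+E2 and -0.22 to -0.21 in CAS. What part nerve tissue had in the Itih3 value was not tested.

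**Figure D4:**
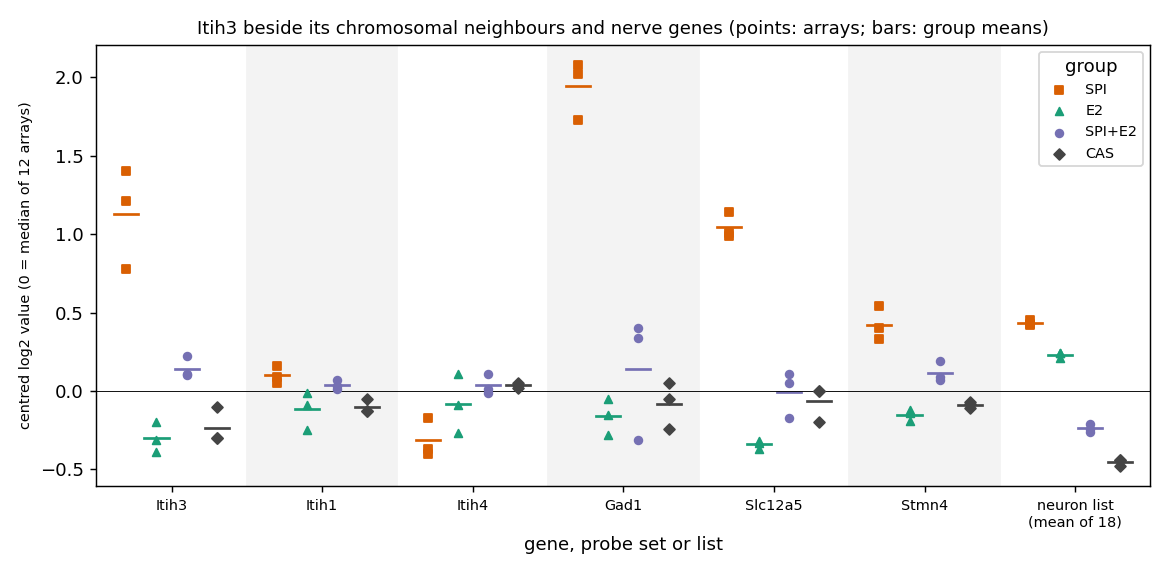
Centred log2 value (y axis) of Itih3, its chromosomal neighbours Itih1 and Itih4, the neuronal genes Gad1, Slc12a5 and Stmn4, and the mean of 18 neuron probe sets (x axis), with SPI, E2, SPI+E2 and CAS from left to right, points for arrays and bars for group means. Itih3 stands at 0.78 to 1.40 in SPI and at or below 0.22 elsewhere. The neuron mean is raised in E2 (0.21 to 0.24), where Itih3, Gad1, Slc12a5 and Stmn4 are not.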

How the data were processed

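RNA of 12 tibia pools, 3 per group, was hybridised to Affymetrix rat genome arrays. The deposited values are on a log scale, taken here as log2 since the base after the last step is not stated: the authors summarised the probe intensities by RMA, exported from GCOS (versions not given), and then normalised per chip and per gene in GeneSpring. Values are relative to the median of the 12 arrays for that probe set (range -2.2 to 3.466), so no filter on dim probe sets was possible and no level or signal over background could be read. Precision is limited by having 12 arrays.

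The table holds 31099 probe sets, of which 31042 were tested after removal of 57 controls. GEO's platform annotation gave 1 symbol for 20826, several for 436 and none for 9780. The 4 group means of every probe set were estimated in one model in limma 3.58.1 (R 4.3.3, statmod 1.5.0), with Benjamini-Hochberg adjustment across the whole table. A probe set was called at an adjusted p under 0.05. There were 7 contrasts, the last being the departure of SPI+E2 from the sum of the SPI and E2 changes. The fit was tested on simulated data. Error terms are SD over pools or SE of the fit.

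The genes and lists were chosen with earlier results of these data known. Every member is named, and of each further plasma or hepatocyte list up to 3 called probe sets per treatment against CAS with the largest change, the defining hepatocyte genes, the 5 probe sets most like Alb and like Itih3 by Pearson r, and Th, Dbh, Npy and Vip. Alternatives were an ANOVA without moderated variances, a replicate block, quantile normalisation, array medians, array weights, trended and robust variances, a filter on SD, fits of 2 groups, means per gene and leaving out each array. Promoter sequences and the order of genes are from RefSeq (GRCr8). Of the genes and motifs this rule covers, 1 item is not reported here.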

Additional observations from a re-analysis of the deposited data

Results flagged for a closer look

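The effect of 17β-estradiol differed between the soy protein isolate and casein diets for Alb and Itih3. For Alb 1367555_at the change made by E2 on soy protein isolate exceeded that on casein by 2.31 on the log2 scale, and for Alb 1367556_s_at by 0.87. For Itih3 the difference was -0.92, with E2 pools near CAS pools on casein and SPI+E2 pools far below SPI pools on soy protein isolate. Both genes were chosen by arrays that enter these differences, so the values describe the choice and carry no test. Without each array in turn they were 2.21 to 2.40, 0.79 to 1.01, and -1.10 to -0.79. With quantile normalisation they were smaller in size, at 1.38, 0.73 and -0.62, so their size depends on the processing.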

How the results depend on the processing

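The number of the 14 probe sets called in E2 against CAS was 0 and became 1 with a replicate block, 2 with quantile normalisation, 2 with array weights, 1 among the probe sets with the larger SD and 1 in a fit of those groups alone, and 0 to 2 without each array. The probe sets concerned were Apoa2 and Fgb 1370511_at, and the cause was not tested. In SPI+E2 against CAS the count was 1 for means per gene, since both called probe sets are of Alb. In SPI against E2 it was 3, and 1 to 4 without each array (1 without SPI pool 1 or E2 pool 1). All other counts stayed within 1.5 times the main count. Pool numbers shared between groups did not pair the arrays: deviations of 18 same-numbered pairs correlated at -0.0741 to 0.244 and 4 of 12 arrays correlated best with their own number. The replicate block also moved the count in SPI+E2 against E2 to 4 from 3, adding Ttr (adjusted p = 0.0375), and changed no other member count.

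Small SPI+E2 changes against CAS turned in sign: Fgb 1388266_at, at 0.00 when rounded, became -0.02 with quantile normalisation and a value below 0 that rounds to 0 with array medians, and without each array Fgb 1388266_at ran from -0.09 to 0.13, Fgb 1371234_at from -0.02 to 0.11 and Apoa1 from -0.07 to 0.11. Itih3 in SPI+E2 against E2 failed in ANOVA (adjusted p = 0.0999). Apoa2 in SPI against E2 failed in a fit of those groups alone (adjusted p = 0.0767). Over all probe sets, 3537 calls in SPI+E2 against SPI became 1662 and 5195 in SPI against E2 became 3190 in fits of those groups alone. Without 1 array, 2631 calls in SPI+E2 against CAS fell to as few as 1408 (without CAS pool 3), 3245 in SPI+E2 against E2 to 1852 (without E2 pool 3) and 5195 in SPI against E2 to 3415 (without E2 pool 3). For means per gene in SPI against E2, 3427 of 14217 genes were called.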

Other observations

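Markers of other cell types that the tibia could hold moved in several directions beside the plasma protein genes. Of 18 chondrocyte probe sets, 15 were lower under SPI, 8 under E2 and 11 under SPI+E2 against CAS, and of 11 erythroid probe sets 9, 11 and 10 fell. Over all probe sets, 9.07%, 4.36% and 4.33% were called lower and 8.25%, 4.99% and 4.14% higher in these contrasts. Of 9 choroid plexus probe sets, markers of a tissue that makes transthyretin, 1 rose in each treated group and 1 fell in E2, too few to set apart from those shares. The riser was Sostdc1, a secreted antagonist of BMP and Wnt that other tissues also make, with changes of 0.64, 1.08 and 0.34 (adjusted p = 1.55e-05, 5.31e-07 and 0.00375). Of 9 macrophage probe sets, 1 rose in SPI+E2, namely Cd68 (0.46, adjusted p = 0.000499), again too few to set apart from those shares. Serpina11, which lies beside Serpina1 on chromosome 6, rose by 0.48 in SPI (adjusted p = 0.0108), where Serpina1 did not pass. One more probe set, 1371237_a_at, is annotated to Mt1f, Ttr and Mt1 together and was left out of the Ttr values, with changes against CAS of 0.20 for SPI (adjusted p = 0.00837), -0.31 for E2 (0.000759) and -0.03 for SPI+E2 (0.777).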
